A study of Rattus norvegicus with 16 samples.

Results

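The glial cell line-derived neurotrophic factor (GDNF) family of ligands and receptors was followed in rat dorsal root ganglia (DRG), the ganglia that hold the cell bodies of sensory neurons. Its members were taken by gene symbol as Gdnf, Nrtn, Artn, Gfra1, Gfra2, Gfra3 and Ret, and every Affymetrix identification (Affy_ID, a set of short probes) with 1 of these symbols alone was used. Of the 31042 Affy_IDs tested, 20826 carried 1 gene symbol and 10 belonged to 6 of the 7 listed genes. There were 3 for Ret, 2 for Gfra1, 2 for Gfra2 and 1 each for Gfra3, Gdnf and Nrtn, while Artn was not matched.

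The arrays held L4/L5 DRG collected 7 days after spared nerve injury (SNI), in which the common peroneal and tibial branches of the sciatic nerve are tied and cut and the sural branch is left whole, or after sham surgery, in which the nerves are only exposed. Adult male Sprague-Dawley rats were 2 months old at surgery and young rats were 10 days old at surgery and 17 days old at collection. The groups were adult SNI (3 arrays), adult contralateral (3 arrays), adult sham (3 arrays), young SNI (2 arrays), young contralateral (2 arrays) and young sham (3 arrays). Contralateral ganglia came from the uncut side of SNI rats, and each array held a pool of 6 DRG from 3 adult rats or of 8 DRG from 4 young rats, so that the spread between arrays is a spread between pools. Before deposit, 1 young contralateral and 1 young SNI array had been left out as outliers.

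As background, GDNF, neurturin (Nrtn) and artemin (Artn) are secreted survival factors, and each binds by preference a receptor that is anchored in the membrane by a lipid and has no kinase of its own: GFRα1 (Gfra1) for GDNF, GFRα2 (Gfra2) for neurturin and GFRα3 (Gfra3) for artemin. The bound pair then activates the receptor tyrosine kinase Ret, which signals inside the cell. In DRG, Ret and Gfra2 are known for non-peptidergic nociceptors, Gfra3 for peptidergic nociceptors, and Gfra1 for large neurons and some small ones. In these pooled ganglia, fewer cells of a type and less RNA per cell cannot be told apart.

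The labels of the young arrays did not follow the genes that sensory neurons express after axotomy. A list of 13 such genes, all measured, averaged 11.06 to 11.49 (log2) in adult SNI, against 6.32 to 6.48 in adult contralateral and 7.11 to 7.53 in adult sham. In the young arrays the same mean was 8.44 and 10.22 in SNI, against 9.52 and 6.35 in contralateral and 9.76, 10.90 and 8.07 in sham. Atf3, the transcription factor most used to mark axotomy, read 7.77 and 10.17 on the log2 scale in young SNI, against 9.06 and 4.87 in young contralateral and 9.49, 11.00 and 7.75 in young sham. Young SNI replicate 2 stood apart from the other 15 arrays. There, 8 genes of central glia and oligodendrocytes averaged 9.61, against 2.67 to 3.46 elsewhere, 6 genes of central neurons averaged 6.77 against 2.00 to 2.54, and 11 general genes of sensory neurons averaged 12.22 against 12.92 to 13.28. Xist, the RNA that silences an X chromosome in female cells, read 9.77 to 12.05 in 5 of the 7 young arrays, 2.36 in young sham replicate 2 and 2.35 in young contralateral replicate 1, against 2.32 to 2.57 in the adult arrays. Its part in the differences between ages was not tested. Differences of young SNI from its controls are given with and without young SNI replicate 2.

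The DNA just before the RefSeq start of Gfra1, the receptor that rose in adult SNI, and of Ret, its partner, is shown as a description. Ret did not pass the test, and the part of these sequences in either response was not tested. Both are the 250 bases before the RefSeq start on GRCr8, 5′ to 3′ on the minus strand, at chr1:267555812-267556061 and chr4:153040557-153040806, with CG pairs in capitals. The Gfra1 window lies inside the RefSeq span of the gene, which reaches further upstream.
Gfra1: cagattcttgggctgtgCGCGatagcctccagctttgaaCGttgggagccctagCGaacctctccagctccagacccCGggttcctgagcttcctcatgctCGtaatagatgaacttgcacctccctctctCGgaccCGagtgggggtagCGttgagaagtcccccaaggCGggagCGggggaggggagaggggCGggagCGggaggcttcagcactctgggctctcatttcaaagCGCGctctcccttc
Ret: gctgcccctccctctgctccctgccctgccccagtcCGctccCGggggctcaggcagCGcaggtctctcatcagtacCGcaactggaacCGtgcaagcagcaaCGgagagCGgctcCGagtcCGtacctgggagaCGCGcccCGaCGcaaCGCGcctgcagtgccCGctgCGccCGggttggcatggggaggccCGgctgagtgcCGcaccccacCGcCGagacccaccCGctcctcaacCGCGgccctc
The Gfra1 window held 15 CG pairs at 62.0% GC and the Ret window 25 at 72.8% GC, against medians of 5 pairs and 51.2% GC over 33469 rat promoters. At least as many pairs as in Gfra1 were found in 25.8% of the promoters, and at least as many as in Ret in 9.74%. The AP-1 letters TGANTCA and the cAMP response element TGACGTCA, which do not contain each other, were searched on both strands from 250 bases before to 50 bases after the start. Neither was found in the windows of Gfra1, Gfra3, Ret, Gdnf, Nrtn or Artn, and 7.33% and 1.83% of all promoters hold them. Like that of Gfra1, the windows of Nrtn and Artn lie inside the RefSeq spans of their genes. DNA further upstream was not searched.

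The question put to the adult arrays was which members respond to nerve injury rather than to surgery alone. Gfra1 rose in adult SNI on both of its Affy_IDs and against both controls, and no other member passed the test. On the array scale (log2 GC-RMA values), Gfra1 Affy_ID 1387007_at read 11.03, 11.40 and 11.29 in adult SNI, against 9.88, 9.68 and 9.83 in adult sham and 9.54, 9.85 and 9.57 in adult contralateral. Every SNI array was above every control array. The log2 difference was 1.44 ± 0.21 (SE) against sham, a 2.72-fold rise (95% interval 1.97 to 3.75, limma adjusted p = 0.0171), and 1.59 ± 0.21 against contralateral, a 3.00-fold rise (2.18 to 4.14, limma adjusted p = 0.00753).

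The other Gfra1 Affy_ID, 1367954_at, read 10.00, 10.35 and 10.11 in adult SNI, against 9.01, 8.55 and 9.12 in adult sham and 8.63, 8.87 and 8.76 in adult contralateral. Again the SNI arrays did not overlap either control. The rise was 1.26 ± 0.21 on the log2 scale against sham (2.39-fold, 1.75 to 3.28, limma adjusted p = 0.0244) and 1.40 ± 0.21 against contralateral (2.64-fold, 1.93 to 3.61, limma adjusted p = 0.0109). Over the 16 arrays the pair of Gfra1 Affy_IDs correlated with r = 0.919, as a description of 2 measures of the same samples.

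The intervals in the text are not adjusted for the number of Affy_IDs, and both adult comparisons use the same SNI arrays. The comparison with contralateral was fitted without pairing the sides of the same rats. The calls rested on few arrays. Against sham, without adult sham replicate 1 or 2, or adult SNI replicate 2 or 3, neither Gfra1 Affy_ID passed, with log2 differences of 1.09 to 1.32 and adjusted p of 0.0757 to 0.116 for 1367954_at and 1.36 to 1.49 and 0.0605 to 0.08 for 1387007_at. Against contralateral, 1367954_at did not pass without adult contralateral replicate 1 or 3 or adult SNI replicate 2 (highest adjusted p = 0.0638), while 1387007_at passed with any 1 array left out (highest 0.0469). Both Gfra1 Affy_IDs are in the list of adult-specific genes of the study, which was chosen on these arrays and is not independent of them.

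**Figure D1:**
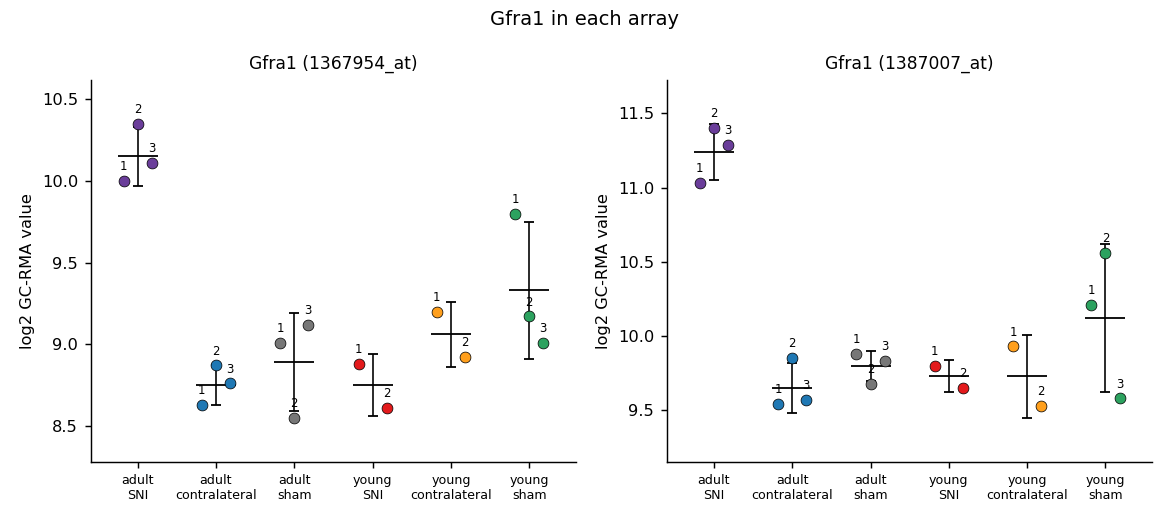
Log2 GC-RMA values of Gfra1 on its 2 Affy_IDs in each array, by group, with the replicate number beside each point and the group mean and SD as bars. The 3 adult SNI arrays (10.00 to 10.35 and 11.03 to 11.40) lie above every other array.

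Across the 6 groups, the means of Gfra1 1387007_at ran from 11.24 ± 0.19 (SD, n = 3) in adult SNI through 10.12 ± 0.50 (n = 3) in young sham, 9.80 ± 0.10 (n = 3) in adult sham, 9.73 ± 0.11 (n = 2) in young SNI and 9.73 ± 0.28 (n = 2) in young contralateral to 9.65 ± 0.17 (n = 3) in adult contralateral. The arrays of each of the other 5 groups overlapped those of its neighbours in this order, and adult SNI stood alone at the top. For 1367954_at the order was adult SNI at 10.15 ± 0.18, young sham at 9.33 ± 0.42, young contralateral at 9.06 ± 0.20, adult sham at 8.89 ± 0.30, adult contralateral at 8.75 ± 0.12 and young SNI at 8.75 ± 0.19. Below adult SNI the neighbours overlapped here as well.

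Counted together, 2 of the 10 member Affy_IDs passed as higher and 0 as lower against adult sham, where 0.48% of all Affy_IDs passed. Against adult contralateral, 2 were higher and 0 lower, where 1.03% of all passed. At an unadjusted p under 0.05 the members numbered 3 in each comparison, the 2 Affy_IDs of Gfra1 and that of Gfra3. Of the 31042 Affy_IDs, 2276 had such a p against sham and 3051 against contralateral. The median log2 difference of the 10 members was 0.09 against sham and -0.07 against contralateral, beside -0.02 and -0.04 over all Affy_IDs. SNI arrays lay wholly above sham for 3 members (4.17% of all Affy_IDs did so) and wholly above contralateral for 3 (8.24%), and wholly below contralateral for 1 (7.08%), Gfra2 1369167_at.

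Injury markers rose with Gfra1 in adult SNI, and some macrophage markers passed against contralateral only. Of the 13 genes of injured neurons, 5 rose against sham, where 0.48% of all Affy_IDs passed, and 10 against contralateral, where 1.03% passed. Among them was Gap43, a growth cone protein, which rose by 1.21 and 1.10 on the log2 scale. Of 10 macrophage genes, 0 passed against sham and 4 rose against contralateral, and their mean was 6.53 to 7.16 in adult SNI, against 5.31 to 6.00 in adult sham and 4.90 to 5.07 in adult contralateral, with 2 of the 10 below a log2 value of 4 in every array. The part of macrophages in the Gfra1 difference was not tested.

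Gfra3, the artemin receptor, read 9.01, 9.03 and 8.75 in adult SNI, against 8.18, 8.40 and 7.93 in adult sham and 8.58, 7.85 and 8.13 in adult contralateral. The SNI arrays were above both controls, but the differences did not pass: 0.76 ± 0.26 on the log2 scale against sham (95% interval 0.20 to 1.32, limma adjusted p = 0.414) and 0.74 ± 0.26 against contralateral (0.18 to 1.31, adjusted p = 0.302). Against contralateral Gfra3 passed (adjusted p = 0.0229) with adult SNI and contralateral arrays of the same number as a random replicate block and every other array alone, a setting chosen after seeing the data.

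Gfra2, the neurturin receptor, read 8.69, 9.02 and 8.61 on 1369167_at in adult SNI, against 9.24, 8.98 and 9.09 in adult sham and 9.20, 9.28 and 9.14 in adult contralateral. SNI lay below contralateral and overlapped sham. The log2 difference was -0.33 against sham (-0.86 to 0.20, adjusted p = 0.912) and -0.43 against contralateral (-0.96 to 0.09, adjusted p = 0.657), and neither passed. The other Gfra2 Affy_ID, 1375359_at, read only 2.40 to 3.75 over the 16 arrays and correlated with the first at r = 0.203. Its adult SNI arrays (2.40 to 2.55) overlapped both controls.

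Ret, the kinase shared by the receptors, showed no difference that passed in adult SNI. On 1370989_at it read 13.31, 13.11 and 13.06 in adult SNI, against 12.37, 13.07 and 13.20 in adult sham and 13.20, 13.42 and 13.09 in adult contralateral. The groups overlapped, and the log2 difference was 0.28 against sham (-0.32 to 0.88) and -0.08 against contralateral (-0.67 to 0.52). The other Ret Affy_IDs gave 0.02 (-0.64 to 0.68) and 0.16 (-0.47 to 0.80) against sham and -0.08 (-0.74 to 0.58) and -0.13 (-0.77 to 0.50) against contralateral. Rises above 1.83-fold against sham lie outside the interval of each Ret Affy_ID, and smaller ones cannot be told from none in this fit. Its variance is shared by all 6 groups, so the intervals also hold the spread of the 2 young SNI arrays. For Ret 1371112_at the SD was 1.1 in young SNI, against 0.09 to 0.24 in the adult groups. No Ret Affy_ID passed in adult SNI under any of the 9 alternatives that kept all arrays. These included a fit of each age alone.

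**Figure D2:**
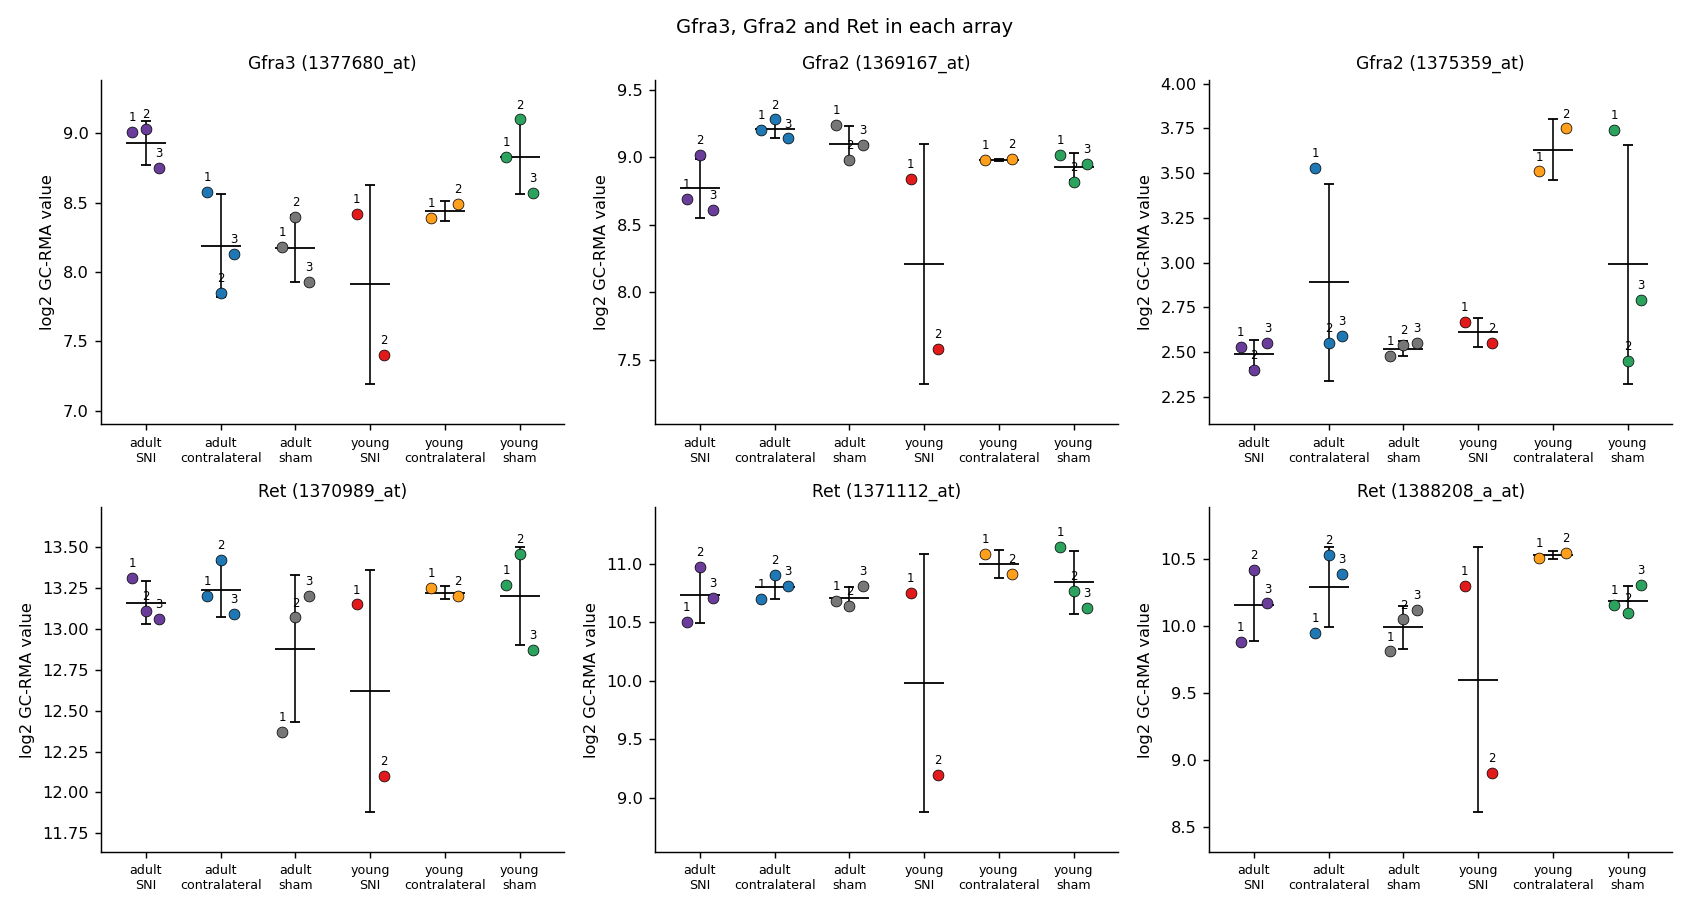
Log2 GC-RMA values of Gfra3, Gfra2 and Ret in each array, by group, with the replicate number beside each point and the group mean and SD as bars (each panel has its own scale, which does not start at 0). Gfra3 was 8.75 to 9.03 in adult SNI, and young SNI replicate 2 was the lowest of 16 arrays for Gfra3, Gfra2 1369167_at and the 3 Ret Affy_IDs.

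The ligands were near the low end of the array values. Gdnf read 2.15 to 2.33 over the 16 arrays, and Nrtn 1.96 to 2.37, where the first quartile of an array was 2.45 to 2.61. These values lie where the scale is set by background, and the file gives no call of presence, so they do not show whether the ganglia held either mRNA. In adult SNI, Gdnf differed by -0.02 (-0.12 to 0.08) from sham and by -0.06 (-0.16 to 0.04) from contralateral on the log2 scale, and Nrtn by -0.10 (-0.31 to 0.12) and -0.01 (-0.23 to 0.20). Persephin (Pspn, 1.87 to 1.99) and its receptor Gfra4 (2.22 to 3.00, the highest in young SNI replicate 2), the remaining ligand and receptor of the family, lay in the same low range.

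In young rats, where the study asked whether the injury response is already present, no member passed the test. Against young sham, 0 of 10 members passed (0.0161% of all Affy_IDs did) and 4 had an unadjusted p under 0.05, as had 1836 of the 31042 Affy_IDs. Against young contralateral, 0 of 10 passed (0.00966% of all did) and again 4 had an unadjusted p under 0.05, as had 1843 of all. The median log2 difference of the 10 members was -0.58 and -0.57, beside 0.01 and 0.00 over all Affy_IDs. Young SNI arrays lay wholly below sham for 2 members (4.36% of all) and wholly below contralateral for 6 (11.6% of all). These medians and counts rested on young SNI replicate 2. Without it, the median of the members was -0.14 against sham and -0.11 against contralateral, beside 0.01 and 0.00 over all Affy_IDs, and 0 had an unadjusted p under 0.05 in either comparison. The remaining young SNI array lay below every sham array for 3 members (10.3% of all) and below both contralateral arrays for 7 (21.3% of all).

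Gfra1 showed no rise that passed in young SNI. On 1387007_at it read 9.80 and 9.65 in young SNI, against 10.21, 10.56 and 9.58 in young sham and 9.93 and 9.53 in young contralateral. The log2 difference was -0.39 (-0.91 to 0.13, adjusted p = 0.885) against sham, and against contralateral the ratio was 0.997-fold (0.672 to 1.48, adjusted p = 1.0). On 1367954_at it read 8.88 and 8.61 in young SNI, against 9.80, 9.17 and 9.01 in young sham and 9.20 and 8.92 in young contralateral, differences of -0.58 (-1.09 to -0.08, adjusted p = 0.837) and -0.31 (-0.87 to 0.24, adjusted p = 0.972). Without young SNI replicate 2, these 4 differences were -0.32, 0.07, -0.45 and -0.18.

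In 6 of the 7 young arrays, across their labels, Gfra1 1387007_at had the same order as the mean of the 13 injury genes. Young sham replicate 2 had the highest list mean (10.90) and the highest Gfra1 1387007_at (10.56), and young contralateral replicate 2 had the lowest of both (6.35 and 9.53). Young SNI replicate 2 did not follow this order, with 10.22 for the list and 9.65 for Gfra1. The other Gfra1 Affy_ID, 1367954_at, did not have the order of the list, with 9.17 in young sham replicate 2, against 9.80 in young sham replicate 1 and 9.20 in young contralateral replicate 1. The 7 arrays are too few and too mixed for a test of this relation.

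**Figure D3:**
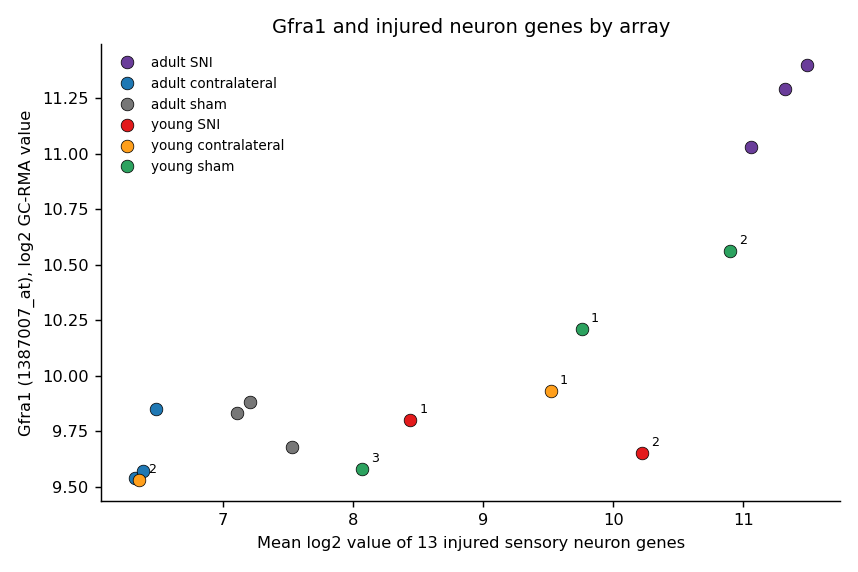
Gfra1 1387007_at (vertical, log2 GC-RMA value) against the mean log2 value of 13 genes of injured sensory neurons (horizontal) for each of the 16 arrays, coloured by group, with replicate numbers for the young arrays. Adult SNI arrays lie at the upper right (11.06 to 11.49 on the list), while the young groups are mixed along the horizontal axis.

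Gfra3, Gfra2 1369167_at and the 3 Ret Affy_IDs had their lowest young values in young SNI replicate 2. Gfra3 read 8.42 and 7.40 in young SNI, against 8.83, 9.10 and 8.57 in young sham and 8.39 and 8.49 in young contralateral. Gfra2 1369167_at read 8.84 and 7.58 in young SNI, against 9.02, 8.82 and 8.95 in young sham and 8.98 and 8.99 in young contralateral. Ret 1371112_at read 10.75 and 9.20 in young SNI, against 11.14, 10.77 and 10.62 in young sham and 11.08 and 10.91 in young contralateral. For each of these 5 Affy_IDs replicate 2 was 1.02 to 1.55 log2 units below replicate 1 and below the lowest of the other 15 arrays, while Gfra1 differed by 0.15 and 0.27 between the same arrays. Gfra2 1375359_at, near the low end of the scale, did not have this pattern. It read 2.67 and 2.55 in young SNI, against 3.74, 2.45 and 2.79 in young sham and 3.51 and 3.75 in young contralateral, where young SNI overlapped sham and lay below contralateral.

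Against young sham the log2 difference was -0.92 for Gfra3 (adjusted p = 0.837), -0.72 for Gfra2 1369167_at and -0.58, -0.87 and -0.59 for the Ret Affy_IDs. Without young SNI replicate 2 these became -0.41, -0.09, -0.05, -0.09 and 0.11. Against young contralateral they were -0.53 for Gfra3, -0.78 for Gfra2 and -0.60, -1.02 and -0.93 for Ret, and -0.02, -0.14, -0.07, -0.24 and -0.23 without that array. With replicate 2 as the only young SNI array, they were -1.43, -1.35, -1.10, -1.64 and -1.29 against sham, in the same order. Against contralateral they were then -1.04, -1.41, -1.12, -1.79 and -1.63. Gfra2 1375359_at differed by -0.38 from sham (-1.13 to 0.37, adjusted p = 0.988) and by -1.02 from contralateral (-1.84 to -0.20, adjusted p = 0.798), and by -0.32 and -0.96 without replicate 2. Neither difference passed.

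**Figure D4:**
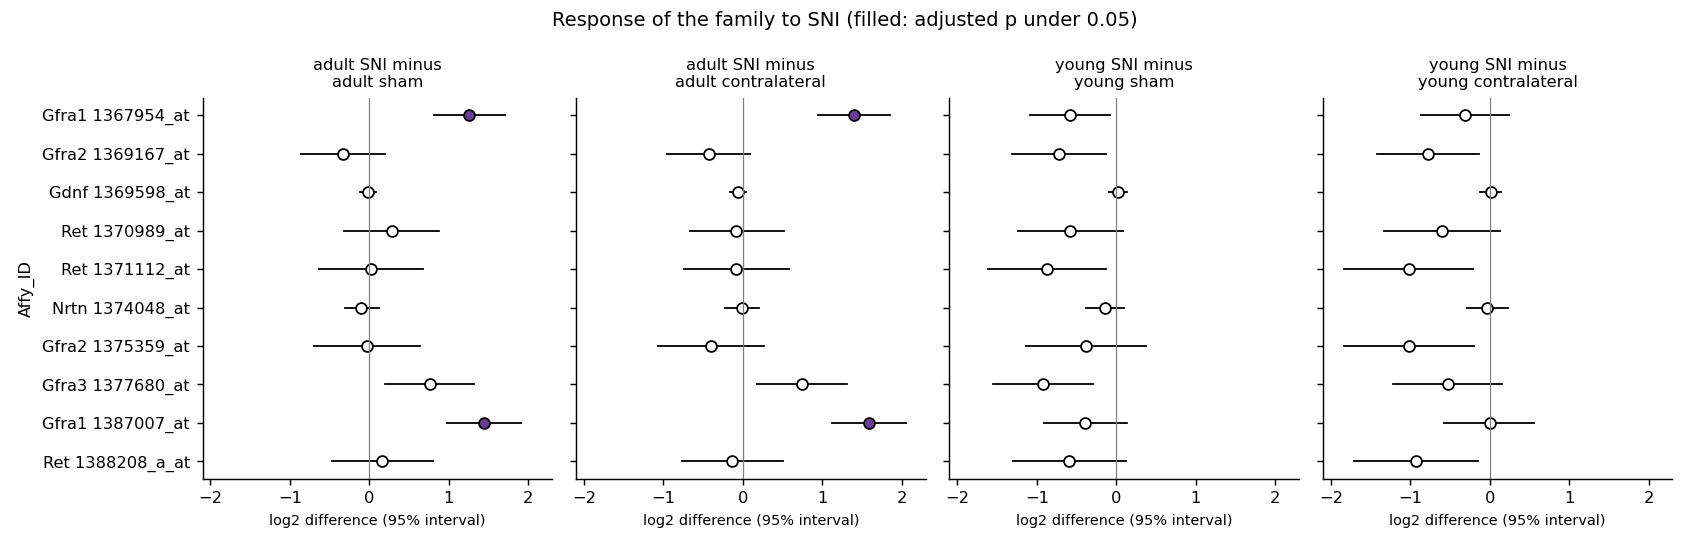
Log2 differences of the 10 member Affy_IDs (points) with 95% intervals (lines) for SNI minus sham and SNI minus contralateral at each age, filled where the limma adjusted p was under 0.05. The filled points are the 2 Gfra1 Affy_IDs in the adult panels (1.26 to 1.59), and the young points include young SNI replicate 2.

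Whether the response differed with age was tested by subtracting the young response from the adult one. The young response is the difference by label, and the injury genes did not follow the young labels. The median log2 difference of the 13 injury genes in young SNI was -0.24 against sham and 0.95 against contralateral, and 0 of them passed. Against sham, 0 of 10 members passed (0.0773% of all Affy_IDs did), and against contralateral 0 of 10 passed (0.0193% of all did), with 3 at an unadjusted p under 0.05 in each. Of the 31042 Affy_IDs, 1948 had such a p against sham and 1493 against contralateral. The difference for Gfra1 was 1.84 ± 0.31 (1.16 to 2.52, limma adjusted p = 0.0794) on 1367954_at and 1.84 ± 0.32 (1.14 to 2.53, adjusted p = 0.0892) on 1387007_at against sham, and 1.72 (1.00 to 2.43, adjusted p = 0.248) and 1.59 (0.86 to 2.32, adjusted p = 0.349) against contralateral. For Gfra3 it was 1.68 ± 0.39 (0.84 to 2.53, adjusted p = 0.214) against sham and 1.27 ± 0.41 (0.38 to 2.16, adjusted p = 0.799) against contralateral.

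These calls sat near the threshold and moved with the setting. Against sham, both Gfra1 Affy_IDs passed after quantile normalization (adjusted p = 0.0488 for each) and without young sham replicate 3 (0.0306 and 0.00798), and 1367954_at also with low values filtered (0.0456). Against contralateral, both passed with SNI and contralateral arrays of the same number treated as a random replicate block (0.0171 and 0.0268). This block also joined young arrays that their numbers do not pair. With the adult pairs alone blocked, chosen after seeing the data, neither passed (0.0939 and 0.122). Without young SNI replicate 2 the Gfra1 values were 1.71 and 1.76 against sham (adjusted p = 0.138 and 0.145) and 1.58 and 1.52 against contralateral, and Gfra3 was 1.17 and 0.76.

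Without nerve injury, no member passed between the ages. Between adult sham and young sham 0 of 10 members passed, where 0.622% of all Affy_IDs did, and between adult contralateral and young contralateral 0 of 10, where 0.177% did. The smallest unadjusted p was that of Gfra3, which averaged 8.17 ± 0.24 in adult sham and 8.83 ± 0.27 in young sham (SD, n = 3 each), a log2 difference of -0.66 (-1.23 to -0.10, limma adjusted p = 0.309). Gfra1 was -0.43 (-0.89 to 0.02) and -0.32 (-0.78 to 0.14) in adult sham relative to young sham. Between contralateral and sham arrays of the same age 0 members passed in either age, where 0% of all Affy_IDs passed in limma, and 0 members had an unadjusted p under 0.05, against 625 Affy_IDs in adult and 697 in young rats.

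The partners of the family outside the 7 genes were taken from lists written from general knowledge. Of 7 measured genes of other ligands and receptors, 0 passed in any comparison. Sorl1, a sorting receptor that binds GDNF and GFRα1, differed by -1.0 ± 0.25 from sham (limma adjusted p = 0.174) and by -1.17 ± 0.25 from contralateral (adjusted p = 0.058) in adult SNI. Ncam1, an adhesion molecule that can serve as a GDNF receptor without Ret, differed by 0.14 and -0.01.

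Of 26 measured adaptors and effectors of Ret, 0 passed in any comparison, and their median in adult SNI was 0.02 against sham and 0.03 against contralateral. The adaptors Shc1, Frs2 and Grb2, which bind the activated receptor, differed by -0.35, -0.34 and -0.03 from sham. Larger differences that did not pass were those of the kinase Src (0.41 against sham, adjusted p = 0.615, and 0.70 against contralateral, adjusted p = 0.116), the transcription factor Stat3 (0.60 and 0.28), the kinase Fyn (0.58 and 0.16) and the PI3-kinase subunit Pik3ca (0.44 and 0.51). Of 10 measured transcription factors and feedback genes downstream of Ret, 1 rose in adult SNI against contralateral and 0 against sham. This was Dusp6, the phosphatase that switches off ERK, which read 9.67, 10.06 and 9.72 in adult SNI, against 9.18, 9.27 and 9.07 in adult contralateral and 9.32, 9.25 and 9.63 in adult sham. Its log2 difference was 0.64 ± 0.12 against contralateral (limma adjusted p = 0.0276) and 0.42 ± 0.12 against sham (adjusted p = 0.247). The call was lost with each age fitted alone (adjusted p = 0.0992), with the replicate number as a block (0.103) and without any 1 of the 3 contralateral arrays or SNI replicate 2 or 3 (0.0618 to 0.132, log2 differences 0.52 to 0.69), and the other Dusp6 Affy_IDs, at 1.01 ± 0.47 and 0.36 ± 0.21 against contralateral, did not pass.

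Of 10 measured genes of non-peptidergic neurons, the Ret-positive nociceptors, 0 passed in any comparison. Their median in adult SNI was 0.00 against sham and -0.25 against contralateral, and the ATP receptor subunit P2rx3 differed by 0.13 and 0.14. The acid phosphatase Acp3 differed by -0.79 and -1.06, the sodium channels Scn11a by -0.54 and -0.61 and Scn10a by -0.53 and -0.57, and the complement regulator Cd55 by -0.29 and -0.45. Others of the list were higher, namely Prph by 0.27 and 0.33, and Prkcd by 0.26 against sham. Runx1 differed by 0.57 from sham and by -0.01 from contralateral. Scn10a is also in the list of peptidergic nociceptors, and Prph in that of general sensory neurons. In young SNI the median of the list was -0.99 against sham and -1.04 against contralateral, and 0.04 and -0.05 without young SNI replicate 2. This was not particular to the list. The 5 measured genes of peptidergic nociceptors had medians of -1.0 and -1.06 in the same comparisons. Their mean was 9.95 in young SNI replicate 2, against 11.47 to 12.33 in the other 15 arrays. P2rx3 read 11.77 and 10.23 in young SNI, against 11.79, 11.93 and 11.81 in young sham and 11.90 and 12.02 in young contralateral, the lowest value again in young SNI replicate 2. Of 10 measured regulators of Ret and of Ret neurons, 0 passed, and their median in adult SNI was -0.33 against sham and -0.19 against contralateral. In the same comparisons the homeobox gene Shox2 differed by -1.0 and -1.05 and Isl1 by -0.65 and -0.85. Runx1, also in this list, differed by 0.57 and -0.01. Isl1 is in the list of general sensory neurons as well.

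The genes whose pattern was most like that of Gfra1 were sought among 13750 Affy_IDs of other single genes with a mean of at least 4, by Pearson r over the 16 arrays. For 1387007_at they were Rab15 (0.984), Pdlim1 (0.982), Adcyap1 (0.974), Pdcl3 (0.970) and Cbln2 (0.965), and for 1367954_at Ipo5 (0.951), Pdlim1 (0.945), Jpt1 (0.932), Pigx (0.927) and Maoa (0.922). Adcyap1 encodes the neuropeptide PACAP and Maoa the enzyme that degrades monoamine transmitters. Pdlim1, found for both, read 10.71, 11.26 and 11.19 in adult SNI, against 9.81, 9.62 and 9.60 in adult sham and 9.40, 9.68 and 9.51 in adult contralateral, and 9.31 to 10.31 in the young arrays. The points share arrays, and for Gfra1 and Pdlim1 the 3 adult SNI arrays were the 3 highest.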

How the data were processed

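Messenger RNA was measured on Affymetrix rat genome arrays. Per the authors, the scans were processed by GC-RMA, and the deposited log2 values were used as given. No counts exist, so the number of arrays sets the precision. Of 31099 Affy_IDs, 57 controls were left out. Symbols come from the platform annotation: 20826 Affy_IDs have 1, 436 several and 9780 none. Promoters are from the RefSeq table on GRCr8, where Gfra2 has no entry.

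All 16 arrays were fitted with limma 3.58.1 in R 4.3.3 as 6 group means, and variances were moderated by empirical Bayes (1.24 prior degrees of freedom). P-values were adjusted by Benjamini-Hochberg over 31042 Affy_IDs, with a threshold of 0.05. The fit was also run on simulated arrays with independent noise and 1 spread for each Affy_ID over all groups. These held neither paired arrays nor the wider spread of young SNI, so they do not test the fit for either. Tables and figures used Python 3.11.15, pandas 2.3.3 and matplotlib 3.10.9. P-values set a difference against the spread between pools, with 1 variance for each Affy_ID over all 6 groups. The spread of the 2 young SNI arrays therefore enters the adult intervals and p-values as well. For Gfra2 1369167_at the SD was 0.89 in young SNI, against 0.07 to 0.22 in the adult groups. A list gene with several Affy_IDs is given by that of highest mean value. The named genes are the members, the 5 Affy_IDs most like each member that passed, list genes that passed, and those the biology turns on. Members, lists and alternatives were chosen with earlier results of these data known.

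SNI and contralateral ganglia came from the same rats. Deviations from the group means of equally numbered adult SNI and contralateral arrays correlated at 0.449, 0.445 and 0.362. In the alternatives with a random block these arrays were therefore taken as paired. The reported fit has no block and treats them as unpaired. The labels do not state a pairing. Equally numbered adult arrays of different rats gave -0.0412, 0.132 and 0.2 for SNI and sham, and 0.0566, 0.171 and 0.118 for contralateral and sham. Between young SNI and contralateral arrays the value was 0.151, and Xist differed between equally numbered sides (11.84 in SNI and 2.35 in contralateral replicate 1), so there the numbers do not pair them.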

Additional observations from a re-analysis of the deposited data

Results flagged for a closer look

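Gfra1 1367954_at, against both controls, and Gfra3, against sham, stood on opposite sides of their controls at the 2 ages. On Gfra1 1367954_at the adult SNI arrays were all above their controls and the young SNI arrays all below theirs, and the adult response minus the young response was 1.84 on the log2 scale against sham and 1.72 against contralateral. For Gfra3 the same held against sham, with a difference of 1.68. The difference itself was tested in the limma fit and did not pass (adjusted p = 0.0794, 0.248 and 0.214). Without young SNI replicate 2, the array with high central glia genes, the values were 1.71, 1.58 and 1.17. For Gfra1 1367954_at the young gap from contralateral was narrow, with a highest SNI value of 8.88 below a lowest control value of 8.92. That young difference was -0.31 (-0.87 to 0.24, limma adjusted p = 0.972). Adult SNI lay wholly above sham for 4.17% of all Affy_IDs and wholly above contralateral for 8.24%. Young SNI lay wholly below sham for 4.36% and wholly below contralateral for 11.6%. The share of Affy_IDs with this pattern at both ages was not counted. The young controls are also not shown to be free of injury genes. The mean of the 13 injury genes was 9.76, 10.90 and 8.07 in young sham and 9.52 and 6.35 in young contralateral. In young SNI it was 8.44 and 10.22. Gfra1 1387007_at did not have this pattern, since young SNI overlapped both young controls, and Gfra3 did not have it against contralateral, where it read 8.42 and 7.40 in young SNI and 8.39 and 8.49 in young contralateral.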

How the results depend on the processing

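In adult SNI both Gfra1 Affy_IDs passed under each of the 9 alternatives that kept all arrays, with log2 differences of 1.21 to 1.44 against sham and 1.33 to 1.59 against contralateral. With the replicate number as a fixed block, the adjusted p were 0.0478 and 0.0278 against sham and 0.0276 and 0.0163 against contralateral, and the block changed no other call of a member. With SNI and contralateral arrays of the same number as a random block at both ages they were 0.0341 and 0.0203, and 0.00069 and 0.000394. In that setting 2 members passed for the difference in response against contralateral. With the adult pairs alone as a random block, added after seeing the data, they were 0.0318 and 0.0205, and 0.000131 and 7.53e-05, Gfra3 passed against adult contralateral as well, which made 3 members, and 0 passed for the difference in response. With the filter 1 member and with quantile normalization 2 members passed for that against sham.

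Leaving out 1 array at a time gave 0 to 2 passing members against adult sham, 1 to 2 against adult contralateral (1 without adult contralateral replicate 1 or 3 or adult SNI replicate 2), 0 to 5 in each young comparison, and 0 to 7 and 0 to 6 for the difference in response against sham and contralateral. The highest young counts came without young SNI replicate 1, where 1 array is left and its spread is taken from the other groups.

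Some differences that did not pass changed sign. Ret 1371112_at against adult sham was -0.08 with array weights and -0.06 with quantile normalization, and Gfra1 1387007_at against young contralateral was 0.11 with quantile normalization. The others did so without 1 array. Against adult sham, Ret 1371112_at ran over these from -0.10 (without SNI replicate 2) to 0.13. Against adult contralateral, Ret 1370989_at ran from -0.15 to 0.02 (without contralateral replicate 2), Ret 1371112_at from -0.20 to 0.04 and Ret 1388208_a_at from -0.30 to 0.00 (both without SNI replicate 1). Gfra1 1387007_at against young contralateral ran from -0.20 to 0.20 (without contralateral replicate 1). Without young SNI replicate 2, Ret 1388208_a_at against young sham was 0.11 (range -1.29 to 0.11), and for the difference in response Gfra2 1369167_at was -0.24 against sham (to 1.02) and -0.29 against contralateral (to 0.97), and Ret 1370989_at -0.00 against contralateral (to 1.05). The cause was not tested.

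Over all Affy_IDs, the alternatives that kept all arrays passed 98 to 244 (149 as reported) against adult sham, 169 to 2698 (321) against adult contralateral (2698 with the adult pairs alone as a random block), 0 to 6 (5) and 0 to 15 (3) in the young comparisons, 11 to 31 (24) and 2 to 67 (6) for the difference in response, and 137 to 367 (193) and 40 to 800 (55) between the ages. Leaving out 1 array gave 35 to 288 and 57 to 580 in the adult comparisons, 3 to 3405 and 3 to 3341 in the young, 11 to 2448 and 3 to 2337 for the difference in response, 80 to 461 and 16 to 331 between the ages, and 0 to 7 and 0 to 204 (0 as reported) between adult and between young controls. GC-RMA gives no detection call, which limits Gdnf, Nrtn and Gfra2 1375359_at.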
